A study of Homo sapiens with 12 samples.

Results

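Mitochondrial ribosomal proteins are encoded in the nucleus by genes named MRPL and MRPS, after the large and the small subunit of the mitochondrial ribosome. Of the 25718 gene names in the count files, 81 started with MRPL or MRPS followed by a digit, and these were taken as the members. They comprised 77 protein-coding genes (48 MRPL and 29 MRPS) and 4 pseudogenes or antisense transcripts (MRPL23-AS1, MRPL42P5, MRPL45P2 and MRPS31P5). The rule reads names only.

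The 12 samples, 3 in each of 4 groups, came from H9, an established line of human embryonic stem cells. The cells carried a lentiviral vector in which doxycycline switches on either miR-10a or miR-10b together with GFP (multiplicity of infection 50 at transduction), and all of them went through 14 days of neural induction with patterning towards ventral midbrain. The miR-10a dox and miR-10b dox groups received doxycycline from day 11 to day 14, and the miR-10a control and miR-10b control groups carried the same vectors without it. No group with a GFP-only vector is among these samples, so that an effect of doxycycline and an effect of the microRNA cannot be told apart. Transduced cultures can also hold cells without vector, and nothing in the labels says whether the replicates of a group came from separate cultures, so that p-values measure only the spread between these samples.

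The mitochondrial ribosome translates the few messages of mitochondrial DNA, which encode core subunits of the respiratory chain. Part of its proteins have counterparts in bacterial ribosomes, and others are found only in mitochondria. Doxycycline is a tetracycline, a class of antibiotic that binds the small subunit of the bacterial ribosome and is known to slow mitochondrial translation as an off-target effect. miR-10a and miR-10b are microRNAs of the Hox clusters that repress messages by pairing of their seed, bases 2 to 8, with sites in the 3′UTR.

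Total counts ranged from 10545487 to 14165426 per sample, and every control sample (12443157 or more) was above every dox sample (12078812 or less). Levels are in CPM (counts per 1000000 counts in that sample), and 3 counts, used as the detection floor, were between 0.212 and 0.284 CPM. The miR-10a precursor gene had 711 to 731 CPM in the miR-10a dox samples and at most 1.37 CPM in the other 3 groups, and the miR-10b precursor gene 2540 to 2662 CPM in the miR-10b dox samples and at most 4.45 CPM elsewhere. SOX2, NES and VIM of the neural progenitor markers and FOXA1, SHH and EN1 of the ventral midbrain floor plate markers were high in all groups. PAX6, LMX1B and OTX2 averaged 0.2, 0.0 and 6.2 counts, but have several transcripts and were poorly measured (see the counting limit described next). Of the genes of pluripotent cells, LIN28A had group means of 899 to 1540 CPM and DPPA4 of 105 to 147 CPM, while ZFP42 averaged 0.3 counts. Replicate 2 of the miR-10b dox group stood apart from its group: the chi-square of counts per degree of freedom was 3.17 and 4.11 in the pairs that held it and 1.22 to 1.93 in all other replicate pairs.

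The files hold counts per RefSeq transcript, and 92.8% of all counts fell on genes with 1 transcript. Reads that fit several transcripts of a gene thus appear to be mostly uncounted, but how they were handled is not given in the sources used here. Each member was therefore measured by its transcript with the highest mean count. Among the protein-coding members, 46 of the 47 with 1 transcript and 14 of the 30 with several had a mean above 10 counts. With MRPL23-AS1, MRPL45P2 and MRPS31P5, 63 members could be tested among 11451 genes in all. The 18 members under that minimum were MRPL9, MRPL10, MRPL11, MRPL21, MRPL24, MRPL39, MRPL42, MRPL49, MRPL52, MRPL55, MRPS12, MRPS14, MRPS18C, MRPS24, MRPS27, MRPS33, MRPS34 and the pseudogene MRPL42P5. MRPS24, the single-transcript exception, shares exons with the read-through gene URGCP-MRPS24. Low counts of these genes do not mean low expression. The 46 well-measured members had a mean of 261 to 2868 counts (median 871), the 14 with several transcripts a median of 83.6 counts.

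Since the study expressed a microRNA, the seed of miR-10a-5p was looked up in them. The mature sequence from RefSeq is shown with its seed in capitals, followed by a 3′UTR site each of MRPS17 and MRPS25 that pairs with all 7 seed bases (in capitals, hg19).
hsa-miR-10a-5p: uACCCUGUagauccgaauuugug
MRPS17, chr7:56023479-56023485, plus strand: gtcttttgagACAGGGTtttgctttgt
MRPS25, chr3:15086120-15086126, minus strand: atttaacccaACAGGGTgtattttctt

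Few member 3′UTRs held a seed site. The longest annotated 3′UTR (GENCODE 44 on hg19) was available for 60 of the 63 tested members and for 81.0% of all tested genes, with a median length of 595.5 bases in members and 1840 bases in all tested genes. The full site ACAGGGTA was in 0 of the 60 members, against 2.73% of all tested genes. The site ACAGGGT without the final A was the best match in 4 members (6.67%, against 14.6%), namely MRPL30, MRPS17, MRPS25 and MRPS28. The shorter site CAGGGTA was the best match in 2 members (3.33%, against 5.14%), MRPL22 and MRPS22, and its 6 bases CAGGGT alone in 10 (16.7%, against 21.3%). The members' 3′UTRs were shorter, and no comparison was made at equal length. The MRPS25 site lies at base 5405 of a 7726-base 3′UTR, which is longer than the whole counted transcript (4566 bases). Likewise, the printed MRPS17 site lies at base 611 of a 1325-base 3′UTR, against a counted transcript of 585 bases. The 3′UTR of MRPS22 has 4014 bases, against a counted transcript of 1122 bases. The counted transcripts of MRPS25, MRPS17 and MRPS22 may thus lack the site. None of these 6 named members passed the test for doxycycline with either vector. The log2 fold change with miR-10a and then with miR-10b was -0.05 and 0.02 for MRPL30 and 0.005 and 0.005 for MRPS17. It was 0.01 and 0.07 for MRPS25 and -0.09 and -0.06 for MRPS28. These 8 values are smaller than 0.1 in size. MRPL22, which has several transcripts, had -0.36 with miR-10a (SE 0.16, unadjusted p = 0.0314, adjusted p = 0.369) and -0.20 with miR-10b (SE 0.16), and MRPS22 had 0.02 and -0.09 (SE 0.05 each).

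The well-measured members kept their order of expression in all groups. Per kilobase of transcript, the 46 genes had mean levels between 16.2 and 213.6 CPM per kb, a 13.2-fold range, with a median of 57.05 and quartiles of 38.9 and 78.4. MRPL51, a large subunit protein found only in mitochondria, was the most abundant at 213.6 CPM per kb. It was followed by MRPS6 at 114.6, MRPL3 at 111.1 and MRPL23 at 101.3, which are counterparts of bacterial ribosomal proteins. MRPL51 had group means of 210.5 to 216.4 CPM per kb, so that its distance from MRPS6 was far above the spread between groups, whereas MRPS6 (112.4 to 117.8) and MRPL3 (106.1 to 115.9) overlapped in their group means. The lowest tested members were MRPS2 (0.610), the pseudogene MRPS31P5 (0.708), MRPL2 (0.780) and the antisense transcript MRPL23-AS1 (1.72). MRPS2, MRPL2 and MRPS31P5 have several transcripts, and their levels cover only reads particular to 1 of them. MRPL23 and MRPL23-AS1 overlap on opposite strands, and without a stated strand setting for the counting their reads cannot be told apart. The same limit holds for MRPL51, whose exons overlap those of NCAPD2 on the opposite strand. MRPS6 exons overlap those of SLC5A3 on the same strand. The order of the 46 levels was nearly the same in each group: the lowest Spearman rho between a pair of groups was 0.989, a description of 46 genes that share their lengths and libraries.

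**Figure D1:**
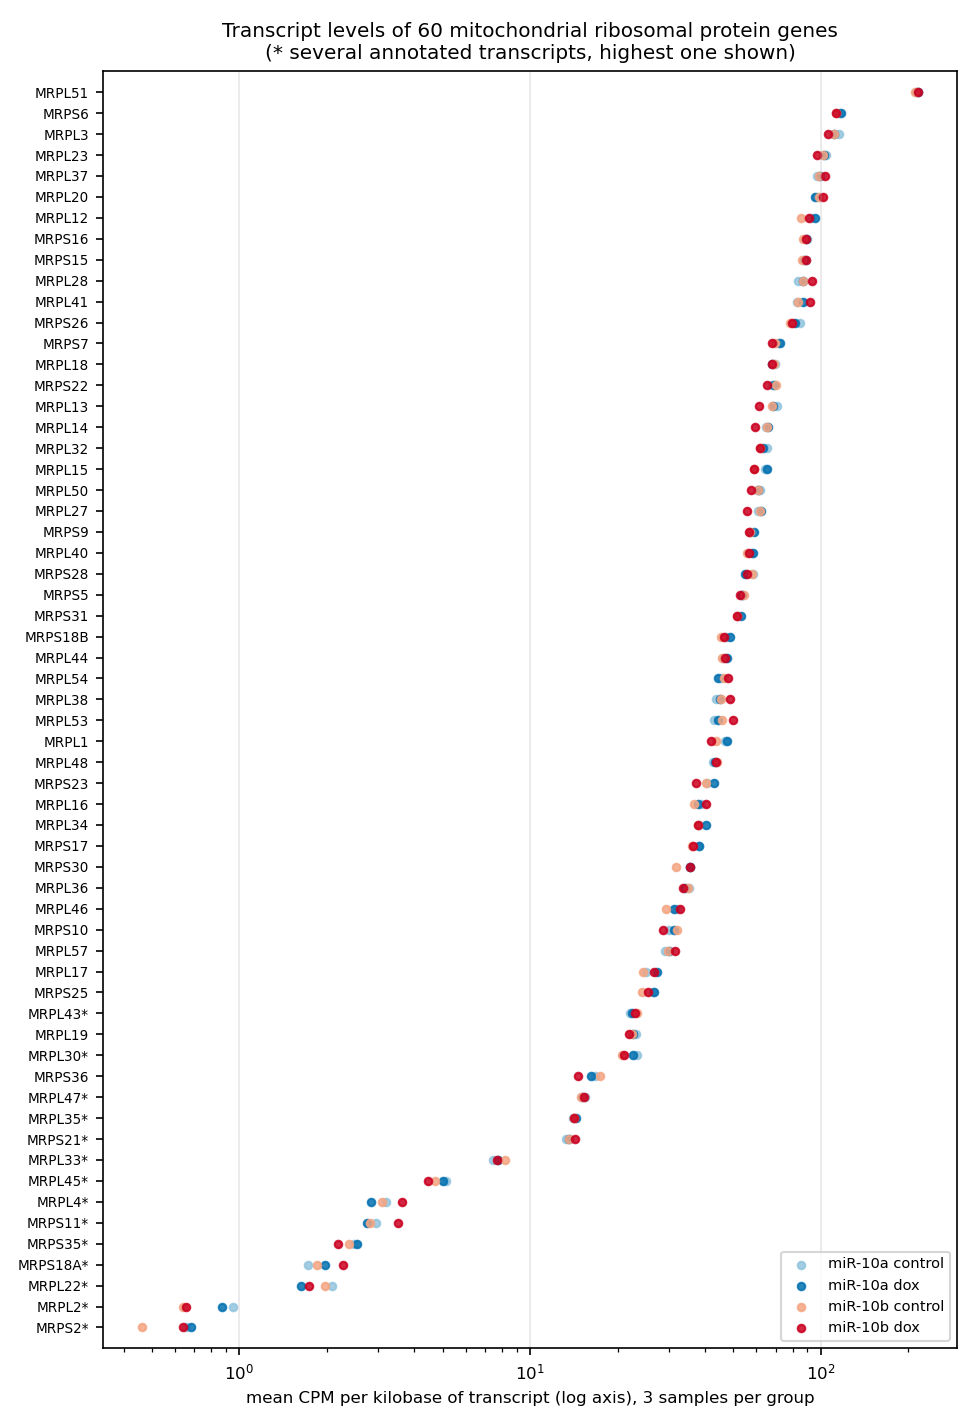
Mean CPM per kilobase (log axis) of the 60 tested protein-coding members in each group of 3 samples, ordered by level. The 4 points of a gene lie close together for all members with 1 transcript, from MRPL51 at 213.6 to MRPS36 at 16.2 CPM per kb, and the starred genes with several transcripts fill the lower end.

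The summed level of each subunit changed with doxycycline by less than the spread between replicates. The 30 large subunit members with 1 transcript summed to 2222 ± 23.5 CPM (SD, n = 3) in miR-10a controls and 2234 ± 19.9 with doxycycline, and to 2177 ± 51.4 and 2206 ± 58.0 with miR-10b. The 15 small subunit members summed to 1326 ± 16.6 and 1334 ± 17.7 CPM with miR-10a and to 1295 ± 11.9 and 1288 ± 32.1 with miR-10b. All these differences between dox and control were within 1 SD of a group. For the small subunit every miR-10a control (1307 to 1338 CPM) was above every miR-10b control (1281 to 1303 CPM), and the dox groups of the vectors were separated the same way. Taken singly, 30.1% of all tested genes were separated between these controls, and the sums were not tested. Together the 45 genes took 0.341% to 0.360% of the counts of a sample, and the lowest share was in replicate 2 of the miR-10b dox group. The large to small ratio was between 1.66 and 1.73 in all 12 samples. In bulk samples such as these, fewer cells of a type and less RNA per cell cannot be told apart.

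**Figure D2:**
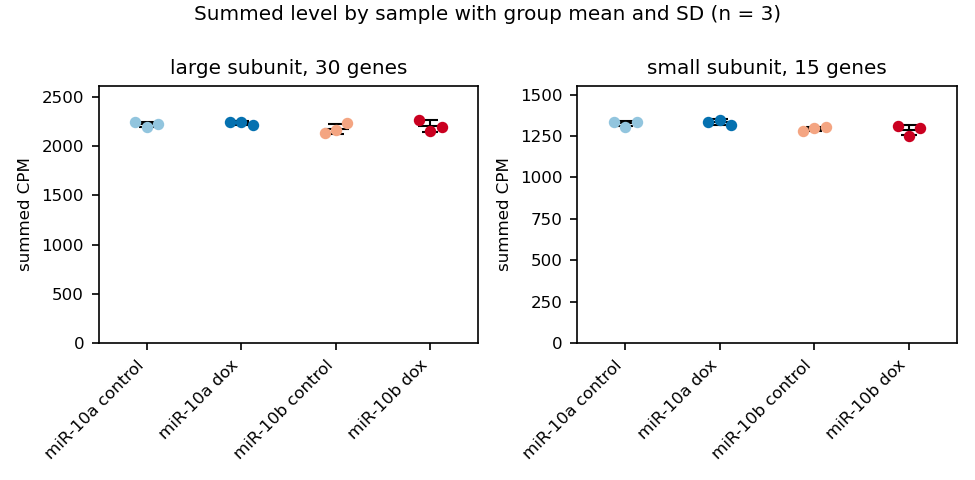
Summed CPM of the 30 large and 15 small subunit members with 1 transcript, by sample, with the group mean and SD (n = 3). Dox and control points of a vector overlap, between 2137 and 2270 CPM for the large subunit and between 1251 and 1350 CPM for the small subunit, where all miR-10a points but 1 control at 1307 CPM lie above all miR-10b points.

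No member passed the test for doxycycline with the miR-10a vector (edgeR quasi-likelihood, Benjamini-Hochberg adjusted p under 0.05). Of the 63 members 0 were called, by edgeR and by DESeq2, against 1.21% of all tested genes. A single call would already be 1.59%, so that 0 calls cannot show a share below 1.21%. At an unadjusted p under 0.05 there were 2 members (3.17%), MRPL17 and MRPL22, against 11.2% of all genes. The median log2 fold change of the members was 0.02 (all genes 0.01), with 34 above and 29 below 0. The samples of both groups were fully separated for 4 members (6.35%), against 18.2% of all genes. These were MRPL28, higher with doxycycline, and MRPL3, MRPL22 and MRPL45P2, lower. For each of the 46 well-measured members the 95% interval lay within a 1.2-fold change in either direction, and for 20 of them within 1.1-fold. The shares of all tested genes were 48.6% and 20.0%.

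With the miR-10b vector a single member passed, MRPS36, which fell. The other 62 did not pass, although 15.3% of all tested genes did (937 higher and 819 lower). At an unadjusted p under 0.05 there were 14 members (22.2%), against 27.6% of all genes. The groups were separated for 16 members (25.4%), against 28.7% of all genes, with 11 higher and 5 lower. The median log2 fold change was 0.005 in the members and 0.02 in all genes. For 41 of the 46 well-measured members the 95% interval lay within 1.2-fold, and for 15 within 1.1-fold, against 40.8% and 12.8% of all tested genes. MRPS36 is named as a small subunit protein but is now known as a subunit of the oxoglutarate dehydrogenase complex of the citric acid cycle, so that of the 59 tested proteins of the ribosome itself 0 were called with either vector, by edgeR and by DESeq2. At an unadjusted p under 0.05 these were 2 and 12. The count of 0 with miR-10b was lost under other settings: 2 passed with TMM normalization (MRPL13 and MRPS10), 3 with a mean above 50 counts (MRPL28, MRPS10 and MRPS30) and 1 with no filter on low counts or with the replicate number as a block (MRPS30). Without replicate 3 of the miR-10b dox group 4 passed (MRPL13, MRPL28, MRPS10 and MRPS30).

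MRPS36 (chromosome 5, 68513587 to 68525985, plus strand, hg19) had 21.8, 23.3 and 24.1 CPM in the miR-10b controls and 20.8, 17.1 and 20.5 CPM with doxycycline. Every dox sample was below every control, and the lowest was replicate 2, the library that stands apart. The log2 fold change was -0.25 (SE 0.08, 95% interval -0.41 to -0.09, adjusted p = 0.0303). Without that library it was -0.16 with an adjusted p of 0.218, and the call was also lost without control replicate 2 (adjusted p = 0.0853) or 3 (0.130) and in a fit of the 6 miR-10b samples alone (0.0641). With miR-10a, MRPS36 had 22.6, 22.0 and 22.0 CPM in controls and 21.7, 20.8 and 22.2 CPM with doxycycline, a log2 fold change of -0.04 (SE 0.08, adjusted p = 0.91). The difference between the vectors was -0.21 (SE 0.11) and did not pass (adjusted p = 0.458).

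**Figure D3:**
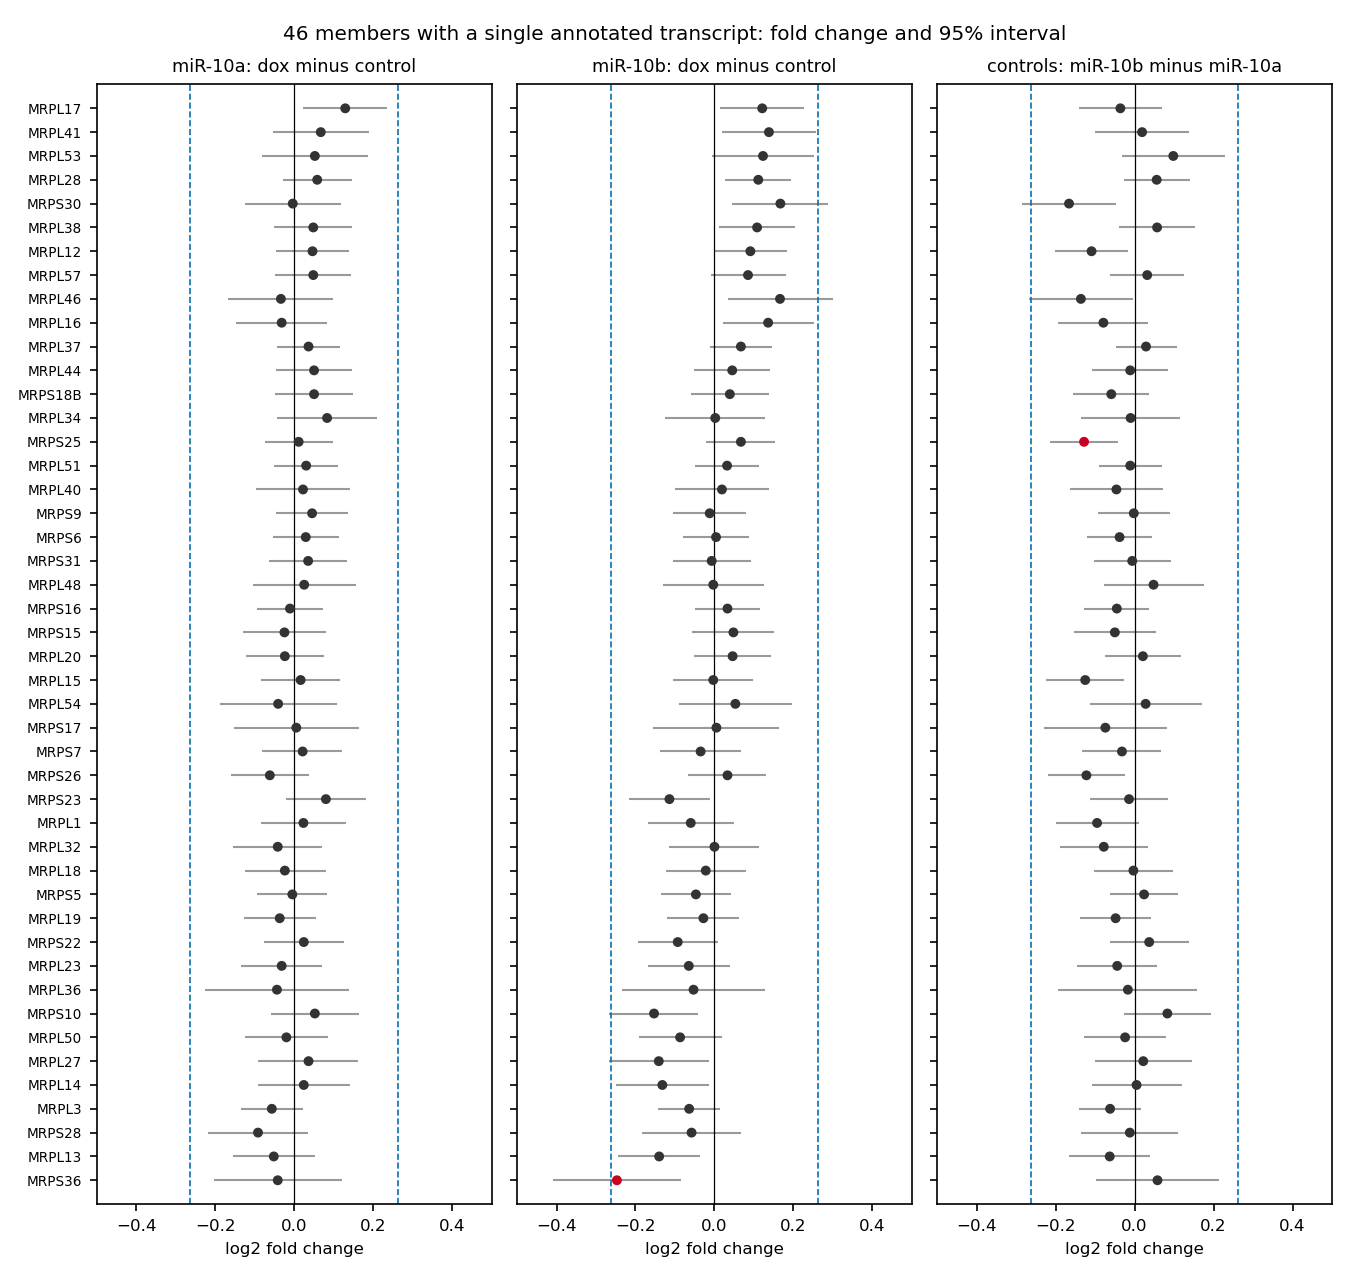
Log2 fold change (points) and 95% interval (lines) of the 46 members with 1 transcript for doxycycline with miR-10a, doxycycline with miR-10b and the difference between controls, ordered by the average doxycycline effect. Red points have an adjusted p under 0.05 (MRPS36 in the middle panel, MRPS25 on the right), and dashed lines mark a 1.2-fold change, inside which all 46 intervals of the left panel lie.

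Averaged over both vectors, MRPL17 rose and no other member passed, against 13.9% of all tested genes. MRPL17 is the counterpart of bacterial L17, a large subunit protein. At an unadjusted p under 0.05 there were 9 members (14.3%), against 26.5% of all genes. The median log2 fold change was 0.006 in members and 0.01 in all genes. All 46 well-measured members had a 95% interval within 1.2-fold, and 34 within 1.1-fold. Of the 11451 genes tested, 56.0% had an interval within 1.2-fold and 27.1% within 1.1-fold. The tested members were counted more deeply than most genes, with a median of 711 against 222 counts, and the part of depth in these narrower intervals was not tested.

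MRPL17 (chromosome 11, 6701616 to 6704571, minus strand, hg19) had 57.7, 59.7 and 60.7 CPM in the miR-10a controls and 66.7, 67.6 and 60.1 CPM with doxycycline. With miR-10b it had 55.5, 59.1 and 59.1 CPM in controls and 63.3, 64.3 and 61.5 CPM with doxycycline. The groups did not overlap with miR-10b, while 1 dox sample of miR-10a lay among the controls. The average log2 fold change was 0.13 (SE 0.04, 95% interval 0.05 to 0.20, adjusted p = 0.0191), or 0.13 (SE 0.05) with miR-10a and 0.12 (SE 0.05) with miR-10b, neither of which passed alone (adjusted p = 0.308 and 0.117). The call was lost with DESeq2 (adjusted p = 0.0816) and without replicate 1 or 2 of miR-10a dox, replicate 1 of miR-10a control or replicate 1 of miR-10b control (0.0549 to 0.0674).

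Separation of every dox sample from every control in the same direction with both vectors was seen for 1 member (1.59%), against 6.66% of all tested genes. This was MRPL28, the counterpart of bacterial L28, singled out here after its values were seen. It had 96.4, 95.02 and 93.8 CPM in miR-10a controls and 98.8, 97.0 and 101.2 CPM with doxycycline, then 99.4, 101.0 and 96.1 CPM in miR-10b controls and 107.8, 109.4 and 103.0 CPM with doxycycline. Its average log2 fold change of 0.08 (SE 0.03) missed the threshold (adjusted p = 0.0535). The MRPL28 exons overlap those of PGAP6 on the same strand.

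**Figure D4:**
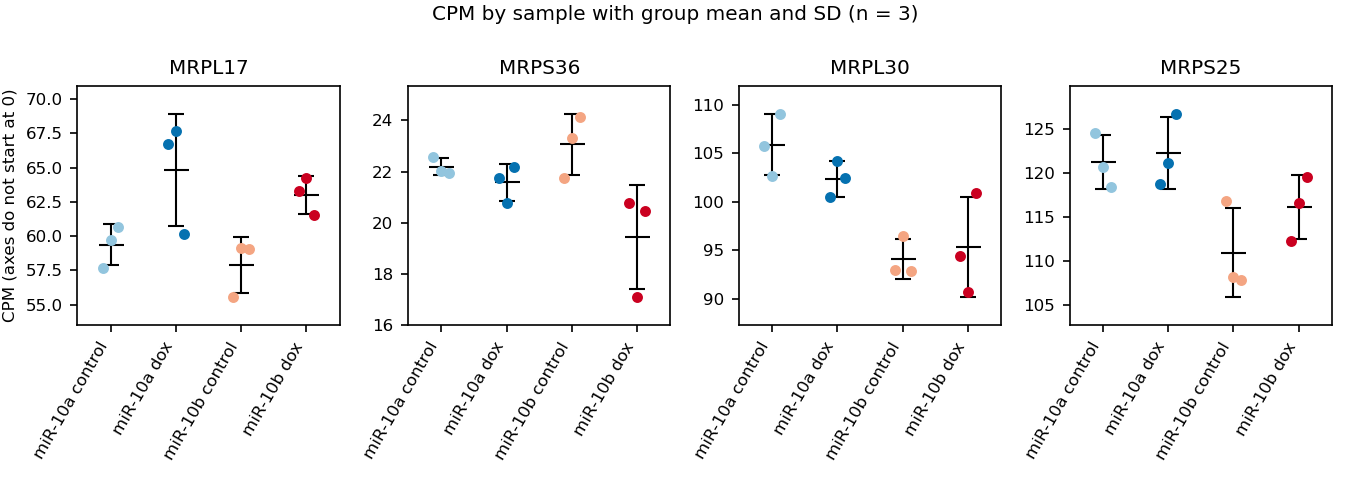
CPM of MRPL17, MRPS36, MRPL30 and MRPS25 in each sample, with the group mean and SD (n = 3), on axes that do not start at 0. MRPL17 is higher with doxycycline for both vectors apart from 1 miR-10a sample, MRPS36 is lowest in 1 miR-10b dox sample at 17.1 CPM, and MRPL30 and MRPS25 are lower in miR-10b than in miR-10a controls.

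The doxycycline effect differed between the vectors for 0 of the 63 members, by edgeR and by DESeq2, against 1.96% of all tested genes. A single call would be 1.59%, close to that share, so that 0 calls do not set the members apart. At an unadjusted p under 0.05 there were 6 members (9.52%), against 13.2% of all genes. The well-measured members bounded this difference less tightly, with 36 of 46 intervals (78.3%) within 1.2-fold and 2 (4.35%) within 1.1-fold. The shares of all tested genes were 33.4% and 5.69%.

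Between the control groups, which had no doxycycline, 2 members passed and both were lower in miR-10b than in miR-10a cells. These were MRPL30, the counterpart of bacterial L30, and MRPS25, a small subunit protein found only in mitochondria. The background was 14.1% of all tested genes (848 higher and 770 lower). At an unadjusted p under 0.05 there were 8 members (12.7%), against 25.0% of all genes. The groups were separated for 8 members (12.7%), 2 higher and 6 lower, against 30.1% of all genes. The median log2 fold change was -0.04 in members and -0.01 in all genes, with 43 members (68.3%) below 0, against 52.8% of all tested genes and 77.9% of the cytosolic ribosomal protein genes. The members' median stayed below 0 under each of the 18 alternative settings, from -0.05 to -0.01.

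MRPL30 (chromosome 2, 99797615 to 99816024, plus strand, hg19) had 105.8, 102.7 and 109.1 CPM in miR-10a controls and 93.0, 96.5 and 92.9 CPM in miR-10b controls. The groups did not overlap, and the log2 fold change was -0.17 (SE 0.04, 95% interval -0.26 to -0.08, adjusted p = 0.00581). It was called under all 18 alternatives (adjusted p 0.00124 to 0.0488). MRPL30 has 2 transcripts and shares exons with 2 unnamed gene models on its strand, whose reads cannot be told apart from its own. With doxycycline it had 100.5, 104.2 and 102.5 CPM with miR-10a and 94.4, 90.7 and 100.9 CPM with miR-10b.

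MRPS25 (chromosome 3, 15051118 to 15106846, minus strand, hg19) had 124.5, 120.6 and 118.4 CPM in miR-10a controls and 116.8, 108.2 and 107.8 CPM in miR-10b controls. The groups were separated, and the log2 fold change was -0.13 (SE 0.04, 95% interval -0.21 to -0.04, adjusted p = 0.0356). The call was lost with DESeq2 (adjusted p = 0.0955), without miR-10a control replicate 1 (0.166) or 2 (0.0801) and without miR-10b control replicate 2 (0.154) or 3 (0.157). Its exons overlap NR2C2 on the opposite strand. MRPL30 and MRPS25 carry the seed site ACAGGGT in their longest 3′UTR, as the best match in 14.6% of tested genes with a 3′UTR. MRPS17 and MRPS28 carry it too and did not pass between controls, with a log2 fold change of -0.07 (adjusted p = 0.622) and -0.01 (0.936). The miR-10b precursor gene had 2.89 to 4.45 CPM in miR-10b and 0.482 to 1.04 CPM in miR-10a controls, and the miR-10a precursor gene 0.641 to 1.37 CPM in miR-10a and at most 0.0794 CPM in miR-10b controls. The part of these levels in the differences was not tested.

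Markers of cell identity also differed between these controls. Of the tested markers, 4 of 4 for neural progenitors and 5 of 7 for floor plate passed, against 14.1% of all tested genes. FOXA1 had 409 CPM in miR-10a and 591 CPM in miR-10b controls, and SOX1 had 52.2 and 22.2 CPM. The summed neural progenitor markers were 9930 to 9987 CPM in miR-10a and 11100 to 11230 CPM in miR-10b controls. Both tested markers of pluripotent cells were lower in miR-10b controls, LIN28A at 1540 and 1140 CPM and DPPA4 at 146 and 108 CPM. The study names LIN28A as a miR-10 target that fell with miR-10a and with miR-10b, so that it is not only a cell marker here. Of the 7 mesoderm and endoderm markers, T, SOX17, GATA4 and HAND1 were under 1 count on average, and the 2 tested passed, COL1A1 at 45.6 and 102 CPM and TWIST1 at 49.4 and 93.2 CPM. That list summed to 93.8 to 96.84 CPM in miR-10a and 186 to 201.9 CPM in miR-10b controls. The 4 neural crest markers summed to at most 6.57 CPM, and neither the 1 tested nor any of the 4 tested neuron markers passed. The part of cell identity in the member differences was not tested. With doxycycline the only marker called with miR-10a was LIN28A, against 1.21% of all tested genes. With miR-10b these were LIN28A, NES of 4 neural progenitor, CORIN of 7 floor plate, INA and MAP2 of 4 neuron markers, ERBB3 and COL1A1, against 15.3%. Their part in the member values was not tested either.

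**Figure D5:**
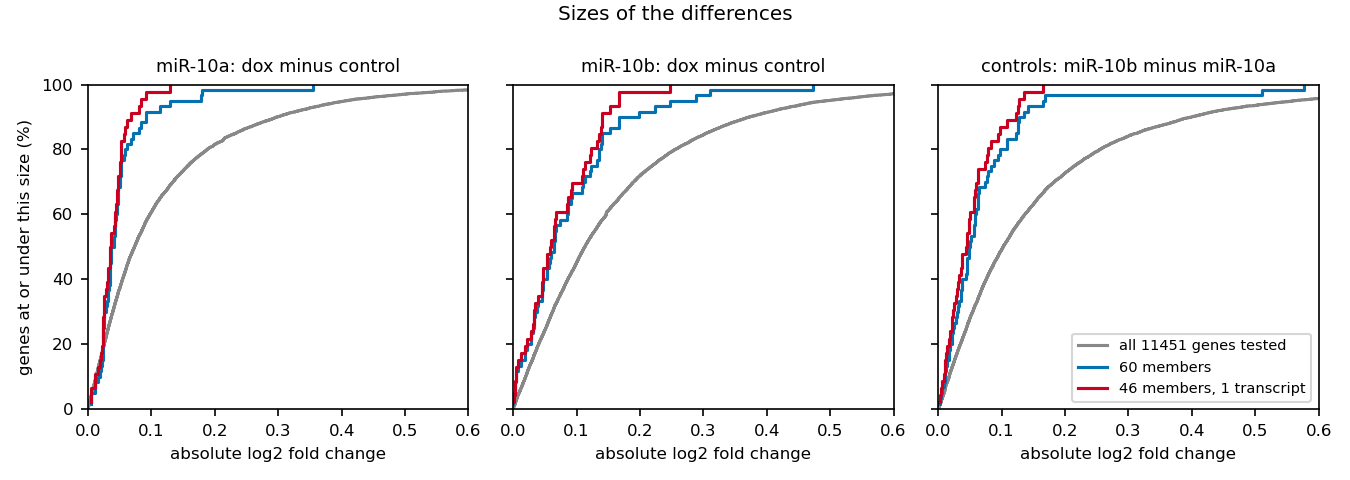
Share of genes (%) at or under a given absolute log2 fold change, for all 11451 genes tested, the 60 protein-coding members and the 46 with 1 transcript, in 3 comparisons. The member curves lie to the left of the curve of all genes: with doxycycline the median size is 0.04 for the 60 members and 0.07 for all genes with miR-10a, and 0.06 and 0.11 with miR-10b. With miR-10a and then miR-10b it is 0.03 and 0.06 for cytosolic ribosomal protein genes and 0.05 and 0.07 for nuclear respiratory chain genes (not drawn). Tested members were counted more deeply than most genes (median 711 against 222 counts), and the part of depth was not tested.

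Calls were few in both subunits. Among 40 large subunit members 0 were called with miR-10a, 0 with miR-10b and 1 on average (MRPL17), and among 19 small subunit members 0 in each of these comparisons. DESeq2 called 0 in all 6 of them, and at an unadjusted p under 0.05 there were 2, 10 and 8 large and 0, 2 and 0 small subunit members. The shares of all tested genes in these comparisons were 1.21%, 15.3% and 13.9%, and 11.2%, 27.6% and 26.5% at an unadjusted p under 0.05. With 40 and 19 members, 0 calls with miR-10a cannot show a share below 1.21%. The median average log2 fold change was 0.009 for the large and 0.01 for the small subunit. It was 0.002 for the 38 counterparts of bacterial proteins and 0.02 for the 21 proteins found only in mitochondria. Between controls the medians were -0.02 (large) and -0.04 (small). None of these subgroups was tested against another.

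Ribosomal proteins and factors without an MRPL or MRPS name were looked at on average over both vectors. Of the tested large subunit proteins ICT1 and GADD45GIP1 and small subunit proteins AURKAIP1, CHCHD1 and PTCD3, 0 of 5 were called on average over both vectors, by edgeR and by DESeq2, with 1 of 5 at an unadjusted p under 0.05. Of the 23 assembly factors 1 rose, SPG7, a subunit of the mitochondrial protease that processes the ribosomal protein MRPL32. SPG7 had a log2 fold change of 0.13 (SE 0.03, adjusted p = 0.00416), from 125.3 ± 4.43 to 146.2 ± 7.08 CPM (SD, n = 3) with miR-10b and from 126.3 ± 4.80 to 129.0 ± 5.45 CPM with miR-10a. Of 11 translation factors 1 fell, GUF1, a mitochondrial elongation factor, by 0.13 on the log2 scale (SE 0.03, adjusted p = 0.000265). GUF1 passed with miR-10b (-0.15, adjusted p = 0.00384) but not with miR-10a (-0.12, 0.105). It was also lower in miR-10b than in miR-10a controls (-0.15, adjusted p = 0.00196). Of 4 genes of mitochondrial transcription and replication 0 were called by either tool, with 2 at an unadjusted p under 0.05. The shares of all tested genes were 13.9%, and 26.5% at an unadjusted p under 0.05. Lists of 4, 5 or 11 genes are too short to show a share below these. With miR-10b alone, 2 of 11 translation factors (GUF1 and OXA1L) and 1 of 23 assembly factors (SPG7) were called, against 15.3% of all tested genes. OXA1L had a log2 fold change of 0.15 (adjusted p = 0.00938). Between controls 2 of 11 (GUF1 and LRPPRC) and 1 of 23 (DHX37) were called, against 14.1%.

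Few of the tested genes known to respond to mitochondrial stress rose, and several of them were poorly measured. Of 12 genes of the mitochondrial unfolded protein response (chaperones and proteases such as HSPD1 and CLPP), 1 was called with edgeR, again SPG7, and 2 with DESeq2. The share of all tested genes with edgeR was 13.9%. HSPD1, DNAJA3, YME1L1 and LONP1 have several transcripts and averaged only 11.0 to 27.5 counts, so that a change in them could be missed. Of 16 tested genes of the integrated stress response, the ATF4 programme that mitochondrial translation defects can induce, 5 were called with edgeR, 4 lower and 1 higher, and 4 with DESeq2, against 13.9% of all tested genes with edgeR. The list for this response held 31 genes, and of those tested PCK2, ATF5, CEBPG and SLC3A2 averaged only 11.1 to 49.8 counts. STC2, a secreted glycoprotein, fell by 0.45 on the log2 scale (SE 0.07, adjusted p = 5.06e-06), and SLC7A11, the cystine transporter, fell by 0.32 (SE 0.04, adjusted p = 1.43e-08). SLC7A5, an amino acid transporter, fell by 0.13 (SE 0.03, adjusted p = 0.000981) and PHGDH, the first enzyme of serine synthesis, fell by 0.07 (SE 0.02, adjusted p = 0.0457). Both averages came mainly from miR-10b, where SLC7A5 had -0.23 (adjusted p = 6.51e-05) and PHGDH -0.13 (0.0057). With miR-10a SLC7A5 had -0.03 (adjusted p = 0.833) and PHGDH -0.007 (0.968). PPP1R15A, which reverses the block of translation in stress, was the one that rose, by 0.10 (SE 0.03, adjusted p = 0.0369). Of these, SLC7A11, PHGDH and PPP1R15A also differed between the controls. Among 4 tested regulators of mitochondrial biogenesis, MYC fell by 0.24 (SE 0.05, adjusted p = 0.00183), from 22.6 ± 0.62 to 19.2 ± 0.49 CPM with miR-10a and from 22.2 ± 0.76 to 18.8 ± 1.05 CPM with miR-10b.

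Set beside other protein families in the average of both vectors, 3 of 68 cytosolic ribosomal protein genes and 3 of 61 nuclear genes of the respiratory chain were called, against 1 of 63 members and 13.9% of all tested genes. Between controls the numbers were 10 of 68, all lower, 2 of 61 and 2 of 63, against 14.1%. The difference between these shares was not tested.

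More member promoters than promoters of all genes held the letters of YY1. RefSeq promoters (GRCh38.p14, 250 bases before to 50 after the start) were available for 54 of the 63 tested members and compared with all 27305 promoters, for the letters of NRF1 (GCGCATGC), GABPA (CCGGAAGT) and YY1 (AAGATGGC) on both strands. NRF1 and GABPA are activators of nuclear genes for mitochondria, and YY1 is a broad regulator that also acts on them. The YY1 letters were in 15 members (27.8%) and 3.03% of all promoters, the GABPA letters in 9 (16.7%) and 4.44%, and the NRF1 letters in 4 (7.40%) and 3.27%. At least 1 of the motifs was in 21 members (38.9%) and 9.90% of all promoters. All promoters include those of genes too low to be tested. Among the 7851 promoters matched to the 11451 tested genes, the shares were 5.04% for YY1, 8.33% for GABPA, 5.08% for NRF1 and 16.9% for any of them. In 12 of the 15 members the YY1 letters lay after the start and on the strand of the gene, as in 379 of the 828 promoters of all genes that held them. These letters contain ATG, so that they can overlap a start codon, and a match is a description, not a bound site. The following windows show the YY1 letters in capitals for 5 members, and the NRF1 letters for MRPL17, the member that rose.
MRPL20, chr1:1407260-1407289, minus strand: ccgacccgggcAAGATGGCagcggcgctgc
MRPL38, chr17:75904860-75904889, minus strand: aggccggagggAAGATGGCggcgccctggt
MRPL46, chr15:88467362-88467391, minus strand: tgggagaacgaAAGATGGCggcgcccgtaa
MRPS10, chr6:42217834-42217863, minus strand: tcgggaccggcAAGATGGCggcgcggacag
MRPS18B, chr6:30617852-30617881, plus strand: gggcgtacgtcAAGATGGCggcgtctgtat
MRPL17, chr11:6683403-6683432, minus strand: caggctctgatGCGCATGCgcaaacacgtt
MRPL17, chr11:6683365-6683394, minus strand: tccgagctaagGCGCATGCgttccctgaaa

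The 5 members with the YY1 letters shown did not pass the doxycycline test with either vector. YY1 itself did not pass on average over both vectors, with a log2 fold change of -0.02 (SE 0.02).

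The pseudogenes and the antisense transcript were measured with less precision and did not pass in any comparison. MRPL45P2 had 15.4, 16.2 and 15.7 CPM in miR-10a controls and 15.03, 13.2 and 14.7 CPM with doxycycline, a log2 fold change of -0.15 (SE 0.10, adjusted p = 0.62), and -0.12 (SE 0.10) with miR-10b. MRPL23-AS1 had 0.46 with miR-10b (SE 0.19, adjusted p = 0.0964), at 2.46, 2.22 and 3.08 CPM in controls and 3.197, 3.95 and 3.58 CPM with doxycycline. Its log2 difference was 0.60 between the vectors' doxycycline effects (adjusted p = 0.289) and -0.49 between the controls (adjusted p = 0.0743). Counts of MRPL45P2 and MRPS31P5 are uncertain, since reads of near-identical parent genes may be assigned to them or lost.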

How the data were processed

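RNA-seq of 12 H9 samples was analysed. The authors sequenced poly-A mRNA as 50-base single-end reads, mapped them to hg19 and deposited raw read counts per RefSeq transcript, 1 file per sample. The submitters' processing notes name STAR, featureCounts and Subread, without versions. The strand setting and the handling of reads shared by transcripts are not given in the sources used here. Each file held 51799 rows, of which 3698 repeated a transcript and were dropped. A gene was represented by its transcript with the highest mean count.

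The main test was edgeR's quasi-likelihood test (version 4.0.16, R 4.3.3, glmQLFit and glmQLFTest, 4 group means in 1 fit of all 12 samples, total count as library size) on 11451 genes with a mean above 10 counts. P-values were adjusted over all of them (Benjamini-Hochberg, threshold 0.05). Intervals are 95% intervals from the fit, unadjusted for the number of genes. Contrasts were doxycycline minus control per vector, their average and their difference, and miR-10b minus miR-10a controls. The code was tested on simulated data. Levels of different genes were compared per kilobase of transcript. Tables were made in Python 3.11.15 (scipy 1.17.1, pandas 2.3.3).

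Alternatives were TMM normalization, DESeq2 1.42.0, no filter on low counts, a mean above 50 counts, counts summed over transcripts, a replicate block, fits of 1 vector alone and leaving out each sample. The members and lists were chosen with earlier results of these data known. The members named were those past the threshold in a contrast, the 4 highest and the 4 lowest in level, and those under the count minimum. From the other lists, genes past the threshold on average over both vectors were named. For translation and assembly factors, those past it with miR-10b or between controls were named too. Some items are not reported here. The labels name other RNA and library kits than the methods.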

Additional observations from a re-analysis of the deposited data

How the results depend on the processing

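The number of members called was small under every setting. It was 0 for doxycycline with miR-10a under all 19 alternatives and 0 for the difference between vectors under all 18. With miR-10b it was 1, and became 3 with TMM normalization, 2 without the filter on low counts, 4 with a mean above 50 counts and 0 in the fit of the 6 miR-10b samples alone. Leaving out 1 sample at a time gave 0 to 5. Averaged over both vectors it was 1, and became 2 with TMM normalization, 0 with DESeq2 and 2 with a mean above 50 counts, and leaving out samples gave 0 to 3. Between controls it was 2, and became 1 with DESeq2 and 3 without the filter on low counts, and leaving out samples gave 1 to 5. Without replicate 2 of the miR-10b dox group the counts were 0 (miR-10b), 2 (average) and 5 (controls). The cause of these changes was not tested.

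With the replicate block the count was 2 for miR-10b and 3 between controls, with MRPS30 added in each, and the counts of the other 3 comparisons did not change. Over all genes the block raised the calls in each comparison, from 139 to 166 with miR-10a and from 1756 to 1826 with miR-10b. Deviations of samples with the same number correlated by -0.03 to 0.01, which shows no strong pairing by number. With 3 samples per group a weak pairing could not be seen, so that it stays unknown whether the numbers pair the samples.

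TMM normalization and DESeq2 moved the median of all genes by at most 0.02 in log2. Over the alternatives the median log2 fold change of the members ran from -0.01 to 0.02 with miR-10a and from -0.02 to 0.03 with miR-10b. It ran from -0.01 to 0.02 for the average, -0.009 to 0.03 for the difference and -0.05 to -0.01 between controls. The medians for miR-10b, the average and the difference turned negative with both TMM normalization (-0.01, -0.006 and -0.007) and DESeq2 (-0.02, -0.01 and -0.008). The miR-10a median was negative in 2 of 19 alternatives. MRPL17 stayed past the threshold in 13 of 18 alternatives, MRPS25 in 13 of 18 and MRPS36 in 15 of 19, all in 1 direction. Of the 14 members with several transcripts, 7 had an interval within 1.2-fold for the average.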
